A study of Mus musculus with 24 samples.

Results

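Primary myoblasts growing in culture were compared with muscle stem cells (MuSCs) taken from injured muscle, which sets proliferation on a dish against proliferation in regenerating tissue. The comparison used 6 of the 24 bulk RNA-seq libraries of the series, all 3 of WT myoblasts and all 3 of WT activated MuSCs (AMuSCs), and these were chosen by their labels and not by any measured value. Both groups came from hindlimb muscle of mice labelled with the genotype Pax7-nGFP, which carry a nuclear green fluorescent reporter of *Pax7*, and the labels give no gene deletion in either. WT myoblasts were purified on magnetic columns, by removal of CD31, CD11b, CD45 and SCA1 positive cells and positive selection for α7-INTEGRIN, and were grown on a collagen coating in Ham's F10 medium with 20% FBS, antibiotics and 5 ng/mL of basic FGF. WT AMuSCs were sorted by flow cytometry as GFP+ ITGA7+ cells without the same 4 lineage proteins, 3 days after intramuscular injection of 10 µM cardiotoxin, a snake venom toxin that destroys myofibres. The other libraries were freshly isolated MuSCs (FiMuSCs) of uninjured muscle and day 2 myotubes of WT mice, and all 4 states of *mdx* mice, which lack full-length dystrophin. The age of the mice and the passage of the cultures are not given in the sources used here. RNA of the sorted cells was extracted with a PicoPure kit and RNA of the cultured cells with a NucleoSpin kit, so culture, purification and RNA kit cannot be told apart in any difference below.

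MuSCs lie quiescent under the basal lamina of the myofibre, marked by the transcription factor PAX7. After injury they enter the cell cycle, express the myogenic determination factor MYOD1, and either differentiate and fuse or return to quiescence. Myoblasts are their progeny in culture, where stiff plastic, serum and added FGF replace the lamina, the dying fibres and the inflammatory cells of the injured niche. Both populations divide, so the comparison asks which genes separate 2 proliferating forms of one lineage.

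Between 44089837 and 60728580 counts were assigned to genes in each of the 6 libraries. Spearman correlations over 13495 genes were 0.987 to 0.993 within WT myoblasts and 0.988 to 0.992 within WT AMuSCs, and 0.884 to 0.904 between the groups. Markers of the lineage were high in all 6 libraries. *Des*, the intermediate filament of muscle, had 443, 709.9 and 494 CPM in WT myoblasts, against 727, 787 and 713 CPM in WT AMuSCs, and *Cdh15*, M-cadherin, had 179, 156 and 169 CPM in WT myoblasts, against 421, 458 and 414 CPM in WT AMuSCs. Of the markers of other cells, *Adgre1* of macrophages had at most 0.0185 CPM in WT myoblasts and at most 1.52 CPM in WT AMuSCs. The list of leukocyte markers went the other way and summed to 45.2 to 63.8 CPM in WT myoblasts and 11.9 to 19.8 CPM in WT AMuSCs. Of its 9 genes tested, 3 were called higher and 3 lower, with a median log2 fold change of -0.05. *Ptprc*, the gene of CD45, was under the filter for testing. It had 0 CPM in every WT myoblast library, against 0.13, 0.128 and 0.648 CPM in WT AMuSCs. The higher sum in WT myoblasts is thus not shared by all leukocyte genes. The 5 erythroid genes tested summed to 0.16 to 0.43 CPM in WT myoblasts and 26.2 to 33.5 CPM in WT AMuSCs. The 11 pericyte and smooth muscle markers tested summed to 1280 to 1567 CPM in WT myoblasts and 1127 to 1288 CPM in WT AMuSCs. They include *Des*, given above as a marker of the muscle lineage, so their sum does not separate pericytes and smooth muscle from muscle cells. The 12 markers of mature myofibres summed to 639 to 1144 CPM in WT myoblasts and 894 to 1240 CPM in WT AMuSCs. Fibro-adipogenic progenitor markers summed to 156 to 185 CPM in WT myoblasts and 210 to 218 CPM in WT AMuSCs. In the same order, Schwann cell markers summed to 23.5 to 26.1 and 64.3 to 74.6 CPM, and endothelial markers to 21.78 to 64.45 and 34.32 to 63.55 CPM. Tenocyte markers summed to 94.4 to 121 and 404 to 436 CPM, but include the immediate early gene *Egr1*. The part of such cells in the matrix differences below was not tested. In bulk samples, fewer cells of a type and less RNA per cell cannot be told apart.

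In 3 respects single libraries stood apart. Summed over *Ddx3y*, *Eif2s3y*, *Kdm5d* and *Uty*, Y-linked genes had 43.6 CPM in WT myoblast 3 and 58.7 CPM in WT myotube 3, against 162 to 365 CPM in the other 22 libraries of the series. A list of 6 sex-linked genes, which also holds *Xist* of the inactive X chromosome, summed to 190.6, 174.5 and 44.5 CPM in WT myoblasts 1, 2 and 3. The cause was not tested. On the other 20 chromosomes the median gene of WT myoblast 3 differed from the mean of the other WT myoblasts by -0.03 to 0.01 on the log2 scale. Among 134 genes called at least 10-fold higher in WT myoblasts with at least 20 CPM there, the median level in WT AMuSCs 1, 2 and 3 was 3.16%, 4.15% and 6.17% of the myoblast mean, and 110 of the 134 were highest in AMuSC 3. Replicate 2 had the most differentiation transcripts in both groups, with 36 sarcomere and differentiation genes summing to 3716, 8677 and 3980 CPM in WT myoblasts, against 3584, 5563 and 3273 CPM in WT AMuSCs. Whether these features contribute to any difference was not tested, and values without a library are given where its removal moved a named gene by over 1.5 times.

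**Figure D1:**
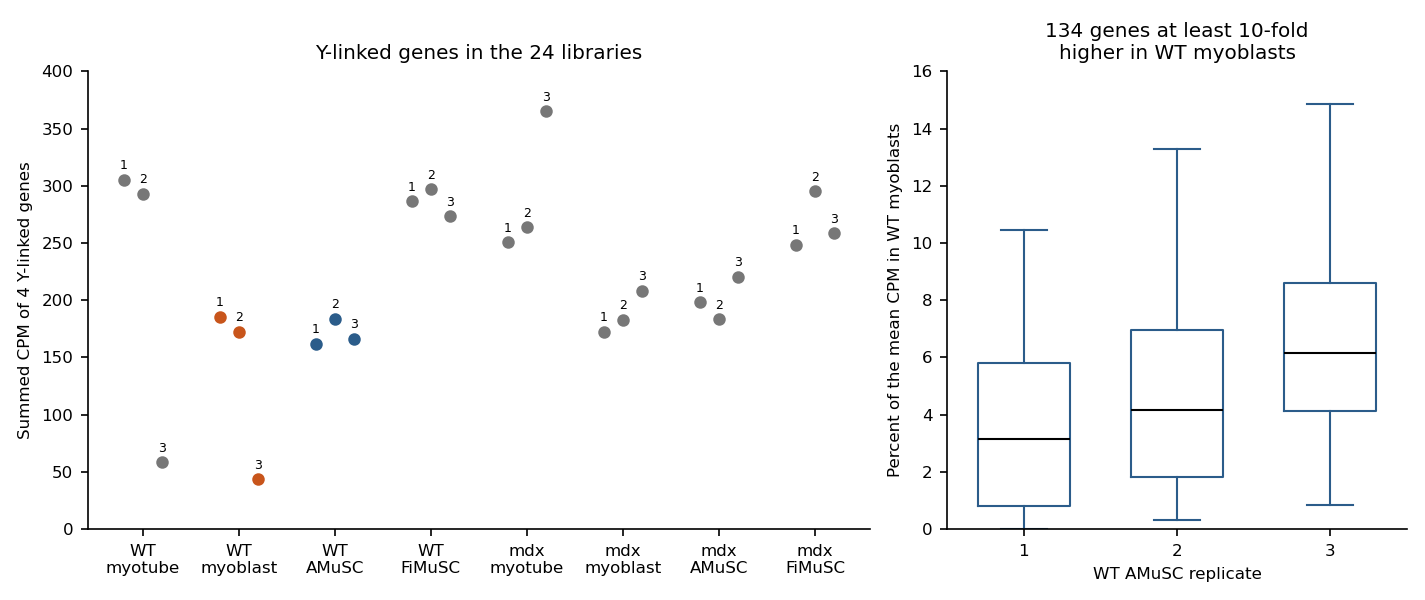
Left, the summed CPM (counts scaled to a common library total) of 4 Y-linked genes in each of the 24 libraries, numbered by replicate, where WT myoblast 3 and WT myotube 3 lie at 43.6 and 58.7 CPM below all others. Right, the level in each WT AMuSC library of 134 genes called at least 10-fold higher in WT myoblasts, as a percentage of the myoblast mean (line, median; box, quartiles; whiskers, range), with medians of 3.16, 4.15 and 6.17% for AMuSCs 1, 2 and 3.

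Cultured and injury-activated cells differed in 56.6% of the genes tested. Of 18528 genes tested, 5270 (28.4%) were higher and 5209 (28.1%) lower in WT myoblasts at an adjusted p under 0.05 (edgeR quasi-likelihood test), and 2201 of the higher and 2908 of the lower genes differed at least 2-fold. The groups did not overlap in 66.5% of the genes. At 10-fold or more, 403 genes were higher and 761 lower. Protein-coding genes were called higher more often than lower, 4939 against 3776 of 14106, whereas of 1639 lncRNAs 188 were higher and 510 lower. The split between directions depended on scaling. With TMM factors 50.3% of the calls were higher, with upper-quartile factors 36.1%, and that scaling moved the log2 fold change of the median gene by -0.19. Counts within gene lists are read against the 28.4 and 28.1% called over all genes, and lists near them, such as the collagens and the imprinted genes, are described gene by gene. Directions of gene groups below are given with TMM, and where upper-quartile scaling turned a group median the text says so.

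**Figure D2:**
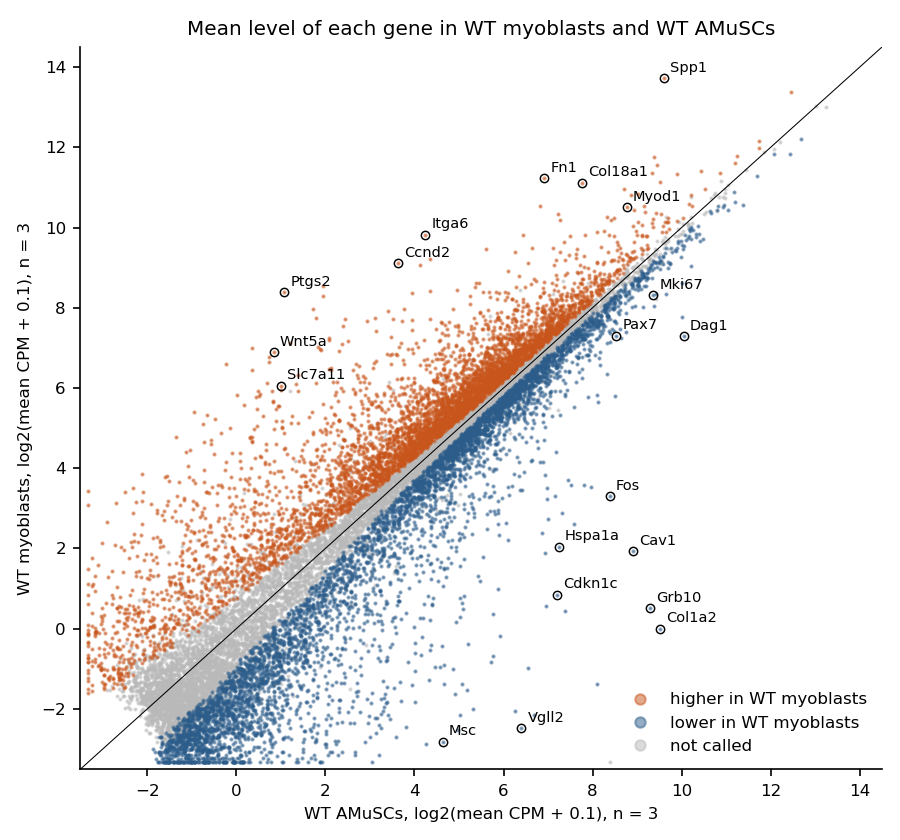
Mean level of each of the genes tested in WT myoblasts (vertical) and in WT AMuSCs (horizontal), as log2 of the mean CPM of 3 libraries plus 0.1, with 20 named genes circled. Orange points are the 5270 genes higher in WT myoblasts and blue points the 5209 lower. *Itga6*, *Ptgs2* and *Spp1* lie far above the diagonal and *Col1a2*, *Grb10* and *Vgll2* far below it.

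*Myod1* and *Pax3* were higher and *Pax7* and *Myf5* lower in culture. Of 23 genes tested in the list of myogenic regulators, 7 were higher and 10 lower, with a median log2 fold change of -0.41. *Myod1*, which commits cells to the muscle lineage, had 1474, 1373 and 1504 CPM in WT myoblasts, against 385, 406 and 514 CPM in WT AMuSCs (log2 fold change 1.74 ± 0.11 SE, adjusted p = 4.9e-06). *Pax7* had 164, 142 and 168 CPM in WT myoblasts, against 378, 385 and 344 CPM in WT AMuSCs (log2 fold change -1.22 ± 0.08 SE, adjusted p = 6e-06). Its paralog *Pax3*, a factor of embryonic muscle progenitors, had 12.9, 10.3 and 11.6 CPM in WT myoblasts, against 1.56, 1.79 and 1.11 CPM in WT AMuSCs (log2 fold change 2.97 ± 0.22 SE, adjusted p = 8.9e-06). *Myf5*, the other determination factor of the lineage, had 22.1, 10.8 and 25.3 CPM in WT myoblasts, against 72.01, 85.5 and 80.5 CPM in WT AMuSCs (log2 fold change -2.03 ± 0.33 SE, adjusted p = 0.0044). The WT myoblast libraries thus lay above every WT AMuSC library for *Myod1* and *Pax3* and below every one for *Pax7* and *Myf5*. *Myog*, which drives terminal differentiation, was not called and had 46.04, 258 and 57.1 CPM in WT myoblasts, against 149, 208 and 154 CPM in WT AMuSCs. The homeodomain factor *Pitx3* had 79.6, 66.7 and 68.8 CPM in WT myoblasts, against 20.2, 21.3 and 26.1 CPM in WT AMuSCs (log2 fold change 1.67 ± 0.11 SE, adjusted p = 6.5e-06). *Sox4* had 423, 324 and 410.4 CPM in WT myoblasts, against 102, 102 and 88.7 CPM in WT AMuSCs (log2 fold change 1.98 ± 0.11 SE, adjusted p = 3.1e-06). Both of these factors were higher in every WT myoblast library than in any WT AMuSC library.

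Several transcription factors that WT AMuSCs expressed were near 0 in culture. *Msc* (musculin), a repressor related to MYOD1, had 0.0741, 0 and 0.052 CPM in WT myoblasts, against 24.98, 27.7 and 21.7 CPM in WT AMuSCs (log2 fold change -9.13 ± 0.40 SE, adjusted p = 1.4e-06, -9.74 without WT myoblast 1). *Vgll2*, a cofactor of TEAD factors in muscle, had 0.0556, 0.163 and 0.0173 CPM in WT myoblasts, against 80.8, 83.5 and 88.6 CPM in WT AMuSCs (log2 fold change -10.04 ± 0.30 SE, adjusted p = 5.8e-07, -11.10 without WT myoblast 2). *Heyl*, a Notch target that keeps MuSCs from differentiating, had 1.39, 2.04 and 0.71 CPM in WT myoblasts, against 128, 139 and 102 CPM in WT AMuSCs (log2 fold change -6.48 ± 0.39 SE, adjusted p = 8.4e-05). For all 3 genes every WT myoblast library was at 2.04 CPM or less and every WT AMuSC library above 20 CPM. *Nfix*, which sets the fetal programme of myogenesis, had 91.02, 83.4 and 89.5 CPM in WT myoblasts, against 231, 221 and 201 CPM in WT AMuSCs (log2 fold change -1.31).

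**Figure D3:**
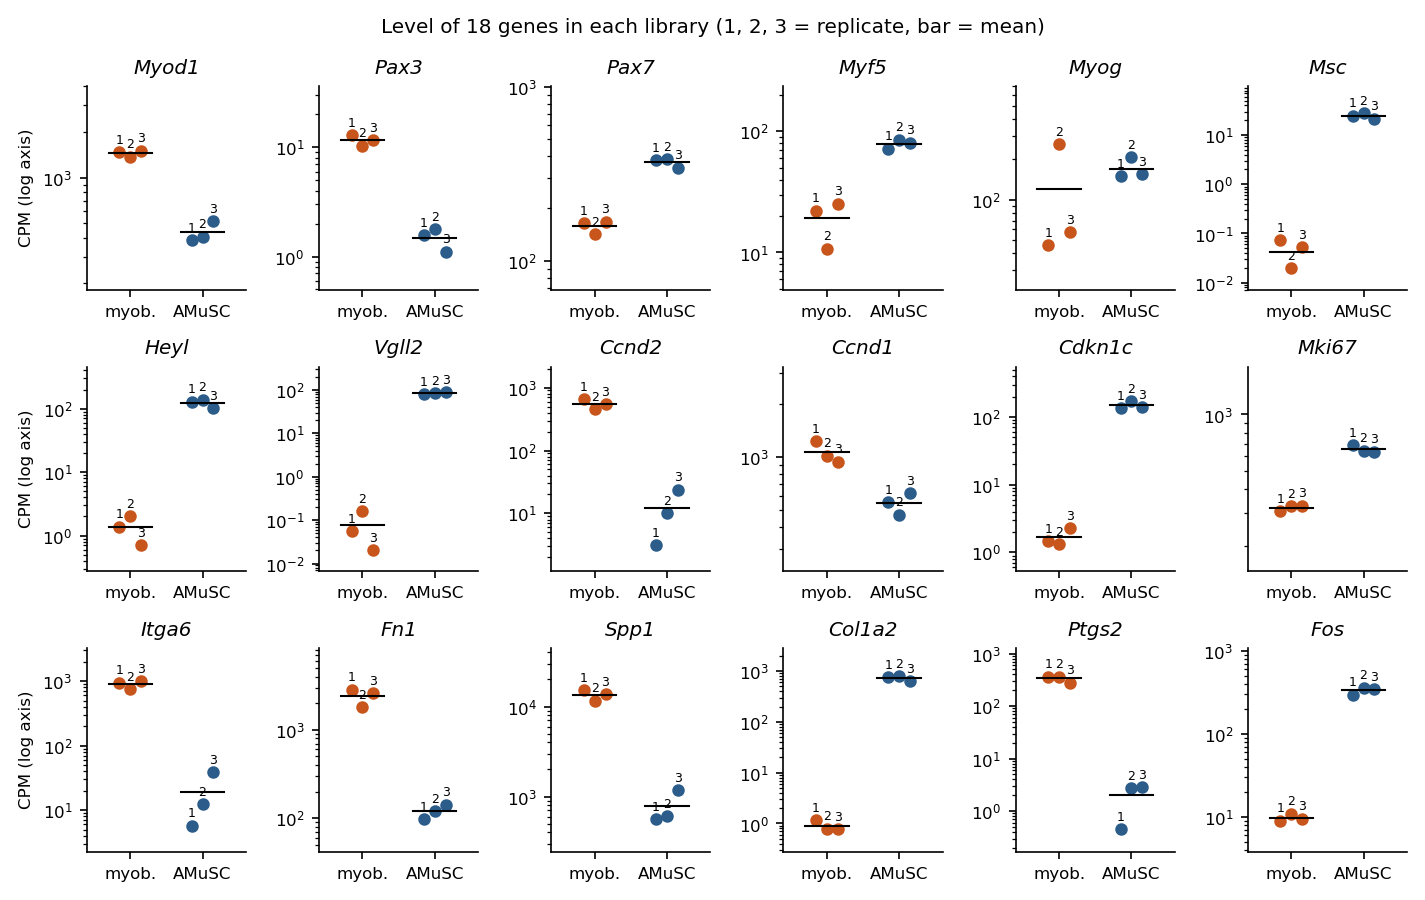
Level of 18 genes in each library in CPM on a log axis, with WT myoblasts (orange) left of WT AMuSCs (blue), points numbered by replicate and bars at the mean. Values under 0.02 CPM are drawn at 0.02. *Myod1*, *Ccnd2*, *Itga6*, *Fn1*, *Spp1* and *Ptgs2* lie higher in all WT myoblast libraries, and *Pax7*, *Heyl*, *Vgll2*, *Cdkn1c*, *Col1a2* and *Fos* lower. *Myog* overlaps between the groups.

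Genes that mark quiescent MuSCs and their surface were mostly lower in culture. Of 37 genes tested in the list of quiescence and surface genes, 12 were higher and 23 lower, with a median log2 fold change of -1.25. *Itga7*, the integrin used to purify both populations, had 355, 394 and 423 CPM in WT myoblasts, against 1022, 989.7 and 1064 CPM in WT AMuSCs (log2 fold change -1.39 ± 0.08 SE, adjusted p = 2.3e-06). *Cd34*, a sialomucin of quiescent cells, had 2.78, 2.13 and 6.18 CPM in WT myoblasts, against 32.9, 24.5 and 33.9 CPM in WT AMuSCs (log2 fold change -3.04 ± 0.44 SE, adjusted p = 0.0025). *Fgfr4* had 53.8, 53.4 and 63.3 CPM in WT myoblasts, against 268, 295 and 266 CPM in WT AMuSCs (log2 fold change -2.28 ± 0.09 SE, adjusted p = 4.5e-07). In the other direction, the heparan sulphate proteoglycan *Sdc3* had 479.5, 499.6 and 480.1 CPM in WT myoblasts, against 67.1, 59.4 and 77.7 CPM in WT AMuSCs (log2 fold change 2.84 ± 0.10 SE, adjusted p = 3.2e-07). The engulfment receptor *Megf10* had 511, 581 and 565 CPM in WT myoblasts, against 106, 96.8 and 80.4 CPM in WT AMuSCs (log2 fold change 2.55 ± 0.11 SE, adjusted p = 7e-07). Of the receptors of the Notch pathway, which maintains the stem cell pool, *Notch1* (log2 fold change -1.32) and *Notch3* (log2 fold change -1.98) were lower, as was the ligand *Dll1* (log2 fold change -1.27), while the ligand *Jag2* was higher (log2 fold change 1.61). The Notch targets did not move together. *Hey1* and *Heyl* were lower (log2 fold change -3.21 and log2 fold change -6.48), whereas *Hes1* and *Hes6* were higher (log2 fold change 0.89 and log2 fold change 1.79). Of 24 genes tested in the list of the Notch pathway, 11 were higher and 9 lower, with a median log2 fold change of -0.05.

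Both populations proliferate, and more replication and mitosis genes were lower than higher in culture. Of 43 genes tested in the list of DNA replication, 2 were higher and 35 lower, with a median log2 fold change of -0.55. Of 52 genes tested in the list of mitosis, 5 were higher and 28 lower, with a median log2 fold change of -0.22. The differences were mostly under 2-fold. *Mki67*, a marker of cycling cells, had 306, 325 and 328 CPM in WT myoblasts, against 686, 643 and 636 CPM in WT AMuSCs (log2 fold change -1.03 ± 0.06 SE, adjusted p = 3.6e-06). *Mcm5*, a subunit of the replicative helicase, had 116, 118 and 104 CPM in WT myoblasts, against 245, 208 and 257 CPM in WT AMuSCs (log2 fold change -1.07 ± 0.09 SE, adjusted p = 2.3e-05). *Ccna2*, cyclin A2, had 143, 154 and 151 CPM in WT myoblasts, against 268, 277 and 283 CPM in WT AMuSCs (log2 fold change -0.89 ± 0.06 SE, adjusted p = 6.3e-06). The groups did not overlap in these 3 genes. With upper-quartile scaling 39 replication genes and 36 mitosis genes were lower, whereas a fit of the 12 WT libraries left 34 and 10 (6457 of 20559 over all genes) and a fit of all 24 libraries left 21 and 8 (4161 of 22319 over all genes). In both of these fits the share of mitosis genes called lower was below that over all genes. In their promoters (250 bases before to 50 after the start, RefSeq on GRCm38.p6, both strands searched), 33 of 43 mitosis genes with an entry (76.7%) held the cell cycle element TTTGAA and 32 of 43 (74.4%) a CCAAT box, against 20.2% and 41.1% of 27025 genes. Of the 33 genes 5 were called higher and 16 lower, and of the 32 genes likewise 5 and 16.

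Regulators of G1 phase moved in both directions. Of 26 genes tested in the list of G1 cyclins, CDK inhibitors and the Rb family, 8 were higher and 13 lower, with a median log2 fold change of -0.30. The 3 D cyclins, which couple growth signals to the cycle, were all higher in WT myoblasts. *Ccnd2* had 651, 452 and 548 CPM in WT myoblasts, against 3.13, 10.1 and 23.7 CPM in WT AMuSCs (log2 fold change 5.48 ± 0.90 SE, adjusted p = 0.0073, 6.42 without WT AMuSC 3). *Ccnd1* had 1236, 1019 and 942 CPM in WT myoblasts, against 555, 472 and 626 CPM in WT AMuSCs (log2 fold change 0.95 ± 0.13 SE, adjusted p = 0.00055). *Ccnd3* had 424, 497 and 425 CPM in WT myoblasts, against 148, 178 and 172 CPM in WT AMuSCs (log2 fold change 1.43 ± 0.10 SE, adjusted p = 5.5e-06). Per length, *Ccnd2* averaged 183 ± 48.4 TPM in WT myoblasts and 3.58 ± 2.89 TPM in WT AMuSCs (SD, n = 3 each), *Ccnd1* averaged 244 ± 31.1 TPM in WT myoblasts and 138 ± 20.4 TPM in WT AMuSCs (SD, n = 3 each) and *Ccnd3* averaged 677 ± 87.8 TPM in WT myoblasts and 265 ± 27.3 TPM in WT AMuSCs (SD, n = 3 each). *Ccnd2* was thus the rarest of the D cyclins in WT AMuSCs and of the same order as the other 2 in WT myoblasts. In the opposite direction, the CDK inhibitor *Cdkn1c* (p57) had 1.46, 1.34 and 2.304 CPM in WT myoblasts, against 134, 171 and 138 CPM in WT AMuSCs (log2 fold change -6.43 ± 0.23 SE, adjusted p = 2.3e-06). The kinase *Cdk6* had 89.6, 111 and 119 CPM in WT myoblasts, against 300.3, 282 and 269 CPM in WT AMuSCs (log2 fold change -1.41 ± 0.11 SE, adjusted p = 1.1e-05). The transcription factor *E2f2* had 11.7, 13.8 and 10.3 CPM in WT myoblasts, against 183, 179 and 182 CPM in WT AMuSCs (log2 fold change -3.93 ± 0.11 SE, adjusted p = 1.4e-07). *E2f2* lay between 179 and 183 CPM in all WT AMuSC libraries and under 14 CPM in all WT myoblast libraries.

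Targets of p53, the DNA damage and stress sensor, were mostly higher in culture. Of 26 genes tested in the list of p53 targets, 18 were higher and 2 lower, with a median log2 fold change of 0.91. *Ccng1* had 783, 648 and 735 CPM in WT myoblasts, against 125, 154 and 137 CPM in WT AMuSCs (log2 fold change 2.38 ± 0.10 SE, adjusted p = 6.7e-07). The feedback ubiquitin ligase *Mdm2* had 262, 206 and 263 CPM in WT myoblasts, against 82.1, 91.3 and 80.6 CPM in WT AMuSCs (log2 fold change 1.53 ± 0.11 SE, adjusted p = 6.9e-06). *Phlda3*, a repressor of AKT, had 220, 226 and 214 CPM in WT myoblasts, against 50.7, 62.2 and 63.6 CPM in WT AMuSCs (log2 fold change 1.90 ± 0.09 SE, adjusted p = 1.3e-06). Every WT myoblast library lay above every WT AMuSC library in these 3 genes. *Zmat3*, an RNA-binding protein, had 198, 177 and 205 CPM in WT myoblasts, against 48.7, 47.03 and 48.3 CPM in WT AMuSCs (log2 fold change 2.01 ± 0.07 SE, adjusted p = 3.5e-07). The CDK inhibitor *Cdkn1a* (p21) had 356, 458 and 366 CPM in WT myoblasts, against 271, 320.4 and 289 CPM in WT AMuSCs (log2 fold change 0.42 ± 0.11 SE, adjusted p = 0.0097). It was no longer called with upper-quartile scaling (adjusted p = 0.096) or in the fit of 24 libraries (adjusted p = 0.12). *Sesn2* was higher (log2 fold change 2.57) and *Sesn1* was lower (log2 fold change -1.33).

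**Figure D4:**
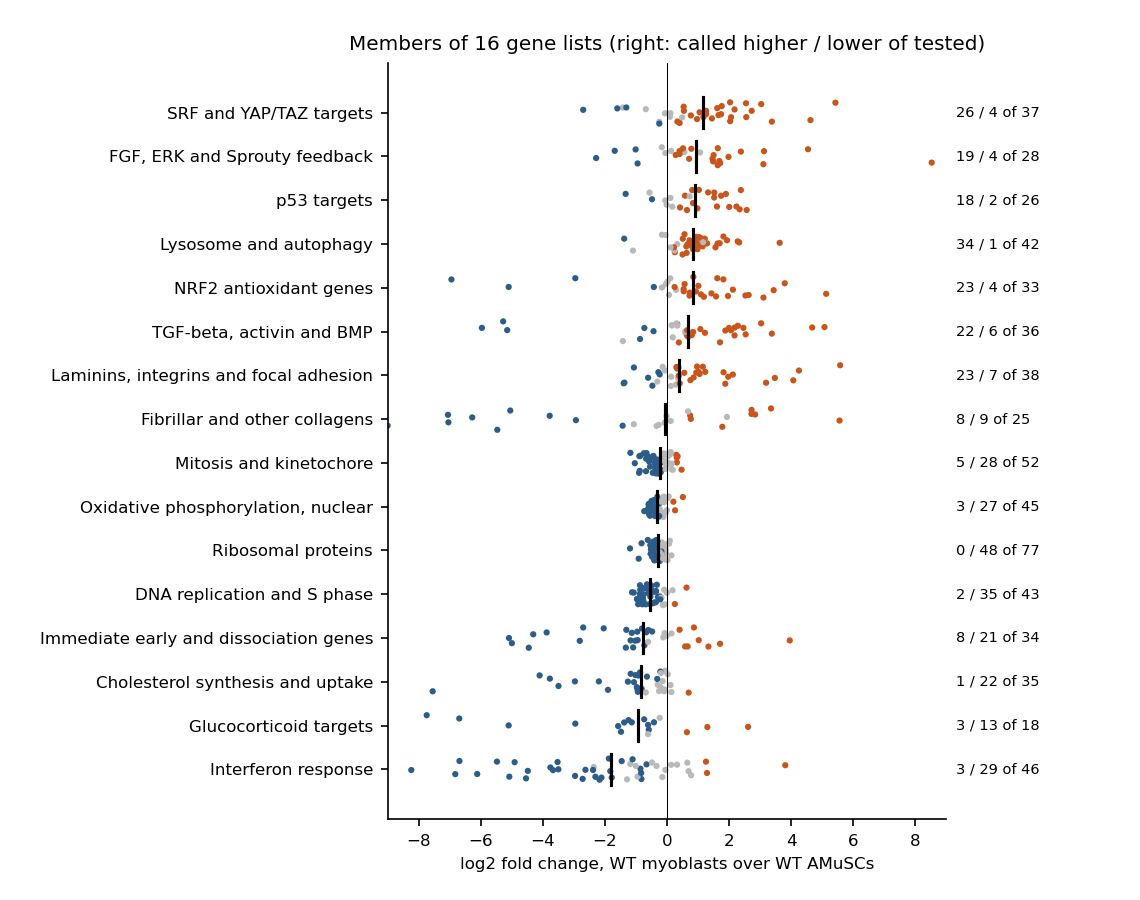
Log2 fold change of WT myoblasts over WT AMuSCs for the tested members of 16 gene lists, with a black line at each median. Values beyond 9 either way are drawn at the edge. Orange members were called higher, blue lower and grey neither, and the counts stand at the right, from 26 of 37 higher for the targets of SRF and YAP/TAZ to 29 of 46 lower for the interferon response.

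Few terminal differentiation genes were called, and the median of the list turned without 1 library. Of 36 genes tested in the list of sarcomere and differentiation genes, 4 were higher and 3 lower, with a median log2 fold change of 0.95. Without WT myoblast 2 the counts were 4 higher and 5 lower with a median of -0.15, and without WT AMuSC 2 they were 7 and 3 with a median of 1.91. *Actn3*, the fast α-actinin of the Z disc, had 39.1, 80.1 and 45.8 CPM in WT myoblasts, against 234, 249.7 and 227 CPM in WT AMuSCs (log2 fold change -2.10 ± 0.29 SE, adjusted p = 0.0023). *Chrna1*, the α subunit of the acetylcholine receptor, had 1334, 1387 and 1409 CPM in WT myoblasts, against 447, 513 and 505 CPM in WT AMuSCs (log2 fold change 1.495 ± 0.07 SE, adjusted p = 1.1e-06). Of 20 genes tested in the list of myoblast fusion, 11 were higher and 2 lower, with a median log2 fold change of 0.44. The fusion receptors and adhesion molecules *Cdon* (log2 fold change 1.66), *Cdh2* (log2 fold change 1.25) and *Cadm1* (log2 fold change 2.70) were higher, whereas *Cdh15* was lower (log2 fold change -1.36).

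The matrix genes divided by molecule and not as a group. Of 25 genes tested in the list of collagens, 8 were higher and 9 lower, with a median log2 fold change of -0.07. *Col1a2*, a chain of collagen I (chr6:4504814-4541544 on GRCm38), had 1.15, 0.794 and 0.762 CPM in WT myoblasts, against 748, 802 and 635 CPM in WT AMuSCs (log2 fold change -9.66 ± 0.19 SE, adjusted p = 7.8e-08). The chains of collagen VI and *Col5a3*, a chain known for its role in the MuSC niche, were low in culture as well. *Col5a3* had 1.24, 1.03 and 1.51 CPM in WT myoblasts, against 184, 175 and 140.4 CPM in WT AMuSCs (log2 fold change -7.04 ± 0.17 SE, adjusted p = 1.5e-07). *Col6a3* had 0.204, 0.325 and 0.139 CPM in WT myoblasts, against 28.8, 38.2 and 22.4 CPM in WT AMuSCs (log2 fold change -7.05 ± 0.33 SE, adjusted p = 2.9e-06). *Col6a2* had 0.796, 0.758 and 0.797 CPM in WT myoblasts, against 50.1, 75.1 and 57.2 CPM in WT AMuSCs (log2 fold change -6.27 ± 0.19 SE, adjusted p = 1.7e-07). Each of these 4 genes was at 1.51 CPM or less in every WT myoblast library. The basement membrane chains went the other way. *Col4a1* had 825, 558 and 769.5 CPM in WT myoblasts, against 113, 97.3 and 89.8 CPM in WT AMuSCs (log2 fold change 2.84 ± 0.17 SE, adjusted p = 1.3e-05). *Col18a1*, whose cleavage yields endostatin, had 2552, 2073 and 2056 CPM in WT myoblasts, against 214, 209 and 229.8 CPM in WT AMuSCs (log2 fold change 3.35 ± 0.10 SE, adjusted p = 1.7e-07). *Col5a2*, a minor fibril chain, was also higher (log2 fold change 0.75), so chains of collagen V moved in both directions. The fibril chain *Col3a1*, with 746, 601 and 601 CPM in WT myoblasts, against 648, 602 and 540.5 CPM in WT AMuSCs, was not called, and *Col1a1*, the partner of *Col1a2*, had 0.926, 0.361 and 0.312 CPM in WT myoblasts, against 19.1, 17.8 and 15.9 CPM in WT AMuSCs (log2 fold change -5.05, -5.69 without WT myoblast 1). *Col1a1* and *Col8a2*, which was under 2 CPM in every library, fall outside the rule for named genes and were chosen after their values were seen.

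**Figure D5:**
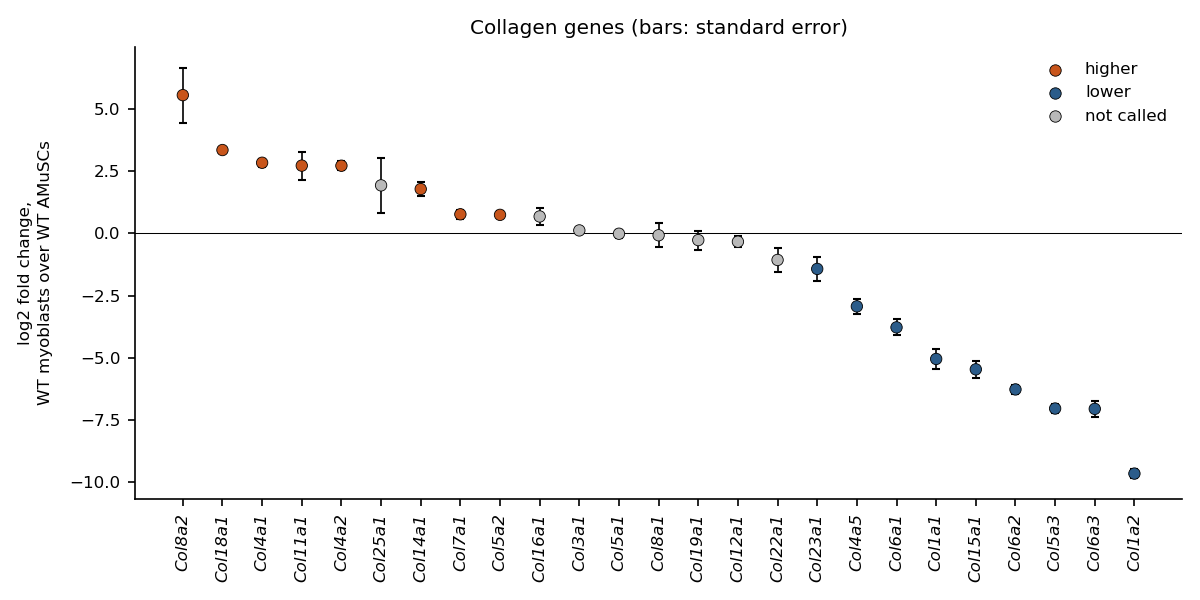
Log2 fold change (points) and standard error (bars) of WT myoblasts over WT AMuSCs for the 25 collagen genes tested, ordered by value. *Col8a2* is at the left end and *Col18a1* and *Col4a1* follow with 3.35 and 2.84, and *Col1a2* is at the right end with -9.66. Orange genes were called higher, blue lower and grey neither.

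Among the other matrix proteins, the adhesive glycoproteins were high in culture. Of 40 genes tested in the list of matrix glycoproteins, 21 were higher and 13 lower, with a median log2 fold change of 0.50. *Spp1*, osteopontin, had 15168, 11638 and 13672 CPM in WT myoblasts, against 565, 603 and 1173 CPM in WT AMuSCs (log2 fold change 4.11 ± 0.37 SE, adjusted p = 0.00053). Per length, *Spp1* averaged 7141 ± 886 TPM in WT myoblasts and 422 ± 177 TPM in WT AMuSCs (SD, n = 3 each), which placed it among the 10 genes of highest TPM in WT myoblasts. *Fn1*, fibronectin, had 2841, 1810 and 2602 CPM in WT myoblasts, against 97.3, 121 and 143 CPM in WT AMuSCs (log2 fold change 4.33 ± 0.24 SE, adjusted p = 3e-05). *Nid1*, the nidogen that links laminin to collagen IV, had 489.6, 374 and 322 CPM in WT myoblasts, against 42.2, 42.6 and 46.8 CPM in WT AMuSCs (log2 fold change 3.17 ± 0.16 SE, adjusted p = 4.8e-06). The groups did not overlap for *Spp1*, *Fn1* or *Nid1*. *Thbs1* had 2476, 1540 and 1499 CPM in WT myoblasts, against 536, 508 and 519 CPM in WT AMuSCs (log2 fold change 1.82 ± 0.21 SE, adjusted p = 0.00054). *Postn*, periostin, was at under 0.4 CPM in all WT myoblast libraries, with 0.259, 0.235 and 0.364 CPM in WT myoblasts, against 35.96, 41.4 and 22.5 CPM in WT AMuSCs (log2 fold change -6.85 ± 0.31 SE, adjusted p = 2.6e-06). *Spp1* also serves as a macrophage marker, and the other markers of that list are given with the interferon genes.

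Receptors that bind this matrix were mostly higher as well. Of 38 genes tested in the list of laminins, integrins and focal adhesion, 23 were higher and 7 lower, with a median log2 fold change of 0.40. *Itga6* (chr2:71745616-71858416), the α6 chain of laminin receptors, had 952, 752 and 1009 CPM in WT myoblasts, against 5.72, 12.3 and 38.5 CPM in WT AMuSCs (log2 fold change 5.58 ± 0.91 SE, adjusted p = 0.0072, 6.67 without WT AMuSC 3). Its partner *Itgb4* had 351, 316 and 373 CPM in WT myoblasts, against 30.7, 28.5 and 34.2 CPM in WT AMuSCs (log2 fold change 3.48 ± 0.10 SE, adjusted p = 1.4e-07), and *Itgb1*, with which it also pairs, had 1238, 1202 and 1124 CPM in WT myoblasts, against 675, 678 and 610.3 CPM in WT AMuSCs (log2 fold change 0.86 ± 0.07 SE, adjusted p = 1.7e-05). The fold for *Itga6* was the larger without AMuSC 3, which held the highest of the 3 AMuSC values. *Itgb3*, a chain of receptors for fibronectin and osteopontin, had 16.5, 11.4 and 13.2 CPM in WT myoblasts, against 0.587, 0.872 and 0.988 CPM in WT AMuSCs (log2 fold change 4.07 ± 0.25 SE, adjusted p = 3.5e-06). Against these stood *Itga7*, given above, and *Lama5*, the long laminin chain, with 172, 181 and 161 CPM in WT myoblasts, against 359.9, 345 and 370 CPM in WT AMuSCs (log2 fold change -1.06 ± 0.07 SE, adjusted p = 4.2e-06). *Dag1*, dystroglycan, the laminin receptor at the core of the dystrophin complex, had 142, 169.5 and 159 CPM in WT myoblasts, against 1130, 1117 and 925 CPM in WT AMuSCs (log2 fold change -2.75 ± 0.10 SE, adjusted p = 3.9e-07), while *Sgca*, α-sarcoglycan, had 41.1, 44.1 and 49.4 CPM in WT myoblasts, against 5.64, 9.16 and 6.46 CPM in WT AMuSCs (log2 fold change 2.67 ± 0.18 SE, adjusted p = 1.1e-05). Of the matrix proteases and their inhibitors, the membrane protease *Mmp14* was higher (log2 fold change 2.44) and *Adam8* lower (log2 fold change -4.35), and the inhibitors *Timp1* (log2 fold change 2.38) and *Timp3* (log2 fold change -4.34) went in opposite directions.

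Genes downstream of actin tension and of FGF were higher in culture. Of 37 genes tested in the list of targets of SRF and YAP/TAZ, 26 were higher and 4 lower, with a median log2 fold change of 1.18. *Tpm1*, tropomyosin, had 2507, 2055 and 2204 CPM in WT myoblasts, against 701, 754 and 743 CPM in WT AMuSCs (log2 fold change 1.62 ± 0.08 SE, adjusted p = 1.6e-06). *Myl9* had 139, 146 and 104 CPM in WT myoblasts, against 12.4, 11.1 and 13.8 CPM in WT AMuSCs (log2 fold change 3.38 ± 0.15 SE, adjusted p = 2e-06). *Cnn2*, calponin 2, had 346, 256 and 339 CPM in WT myoblasts, against 33.99, 39.6 and 40.9 CPM in WT AMuSCs (log2 fold change 3.04 ± 0.14 SE, adjusted p = 1.4e-06). The immediate early member *Egr1* was among the 4 lower. Of 28 genes tested in the list of FGF and ERK feedback, 19 were higher and 4 lower, with a median log2 fold change of 0.93. These are mostly inhibitors that ERK signalling induces against itself. *Dusp4*, an ERK phosphatase, had 264, 256 and 238 CPM in WT myoblasts, against 28.4, 25.2 and 34.1 CPM in WT AMuSCs (log2 fold change 3.11 ± 0.12 SE, adjusted p = 4e-07). *Dusp6* had 139.8, 122 and 119 CPM in WT myoblasts, against 36.1, 37.3 and 44.7 CPM in WT AMuSCs (log2 fold change 1.69 ± 0.10 SE, adjusted p = 3.3e-06). *Spry2* had 188, 157 and 174 CPM in WT myoblasts, against 51.6, 51.03 and 63.6 CPM in WT AMuSCs (log2 fold change 1.64 ± 0.11 SE, adjusted p = 4.7e-06). The groups did not overlap in these 3 genes.

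The enzymes that turn membrane lipid into prostaglandins were among the genes with the greatest increases. *Pla2g4a*, which frees arachidonic acid, had 146, 146 and 89.8 CPM in WT myoblasts, against 0.261, 1.23 and 2.04 CPM in WT AMuSCs (log2 fold change 6.76 ± 0.71 SE, adjusted p = 0.0014, 7.51 without WT AMuSC 3). The cyclooxygenase *Ptgs2* (chr1:150100031-150108227) had 364, 365 and 279 CPM in WT myoblasts, against 0.456, 2.7 and 2.85 CPM in WT AMuSCs (log2 fold change 7.41 ± 0.72 SE, adjusted p = 0.0011), the largest log2 fold change of the 25 largest increases. *Ptgs1*, the other cyclooxygenase, had 238, 212 and 192 CPM in WT myoblasts, against 0.261, 2.57 and 7.24 CPM in WT AMuSCs (log2 fold change 5.99 ± 1.11 SE, adjusted p = 0.011, 7.34 without WT AMuSC 3). For these 3 genes no WT AMuSC library exceeded 7.3 CPM, and every WT myoblast library was at 89.8 CPM or more. Others of the 25 largest increases encode proteins better known from neurons or early patterning. *Scn9a*, a voltage-gated sodium channel, had 376, 291 and 273 CPM in WT myoblasts, against 0.815, 2.08 and 8.42 CPM in WT AMuSCs (log2 fold change 6.37 ± 1.01 SE, adjusted p = 0.0066, 7.82 without WT AMuSC 3). The homeobox gene *Dlx2* had 85.1, 82.8 and 93.7 CPM in WT myoblasts, against 0.0978, 0.744 and 2.66 CPM in WT AMuSCs (log2 fold change 6.21 ± 0.95 SE, adjusted p = 0.0057, 7.82 without WT AMuSC 3). *Sct*, the gut hormone secretin, had 372, 383 and 365 CPM in WT myoblasts, against 0.244, 1.19 and 9.9 CPM in WT AMuSCs (log2 fold change 6.61 ± 1.39 SE, adjusted p = 0.016, 9.13 without WT AMuSC 3). It was no longer called without WT myoblast 1 (adjusted p = 0.051) or WT myoblast 3 (adjusted p = 0.0502). Among the AMuSC libraries, each of the 25 genes was highest in AMuSC 3, and 23 were lowest in AMuSC 1. Whether RNA of cultured cells was carried over into the AMuSC libraries was not tested, and it would bear on the AMuSC levels and the folds of these genes.

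Secreted signals and their receptors moved in both directions. *Wnt5a*, a ligand of non-canonical Wnt signalling, had 168, 108 and 82.4 CPM in WT myoblasts, against 0.766, 1.91 and 2.39 CPM in WT AMuSCs (log2 fold change 6.16 ± 0.56 SE, adjusted p = 0.00074). *Axin2*, a target of canonical Wnt signalling, had 0.185, 0.163 and 0.329 CPM in WT myoblasts, against 10.2, 8.504 and 11.2 CPM in WT AMuSCs (log2 fold change -5.45 ± 0.30 SE, adjusted p = 2.1e-06). *Lgr5*, an R-spondin receptor, had 0.481, 0.235 and 0.693 CPM in WT myoblasts, against 10.7, 10.8 and 9.06 CPM in WT AMuSCs (log2 fold change -4.43 ± 0.35 SE, adjusted p = 1.6e-05). Of 34 genes tested in the list of the Wnt pathway, 16 were higher and 9 lower, with a median log2 fold change of 0.49. Without WT AMuSC 2 the lower calls came to 5. The cytokine *Il11* had 69.02, 40.5 and 73.5 CPM in WT myoblasts, against 0.635, 1.38 and 1.87 CPM in WT AMuSCs (log2 fold change 5.56 ± 0.48 SE, adjusted p = 0.00041). *Csf1*, the growth factor of macrophages, had 864, 728 and 1064 CPM in WT myoblasts, against 155, 157 and 225 CPM in WT AMuSCs (log2 fold change 2.31 ± 0.21 SE, adjusted p = 0.0002). *Cxcl12*, a chemokine for haematopoietic and progenitor cells, had 203, 142 and 220.4 CPM in WT myoblasts, against 37.05, 38.95 and 39.4 CPM in WT AMuSCs (log2 fold change 2.29 ± 0.16 SE, adjusted p = 2.5e-05). These 3 secreted factors did not overlap between the groups. *Il33*, an alarmin, was lower, with 1.28, 2.11 and 1.61 CPM in WT myoblasts, against 39.3, 34.5 and 30.3 CPM in WT AMuSCs (log2 fold change -4.38 ± 0.20 SE, adjusted p = 9.7e-07). Of 36 genes tested in the list of TGF-β, activin and BMP signalling, 22 were higher and 6 lower, with a median log2 fold change of 0.67. The intracellular inhibitors *Smad6* (log2 fold change 3.04), *Smad7* (log2 fold change 2.18) and *Skil* (log2 fold change 2.46) were higher, and the ligands *Bmp4* (log2 fold change -5.15) and *Bmp6* (log2 fold change -5.28, -5.91 without WT myoblast 1) lower. Among guidance molecules, the semaphorin *Sema3e* had 586, 548 and 657 CPM in WT myoblasts, against 11.8, 16.9 and 32.3 CPM in WT AMuSCs (log2 fold change 4.88 ± 0.47 SE, adjusted p = 0.00088). The netrin receptor *Unc5b* had 532, 525 and 538 CPM in WT myoblasts, against 12.4, 13.03 and 26.6 CPM in WT AMuSCs (log2 fold change 4.94 ± 0.38 SE, adjusted p = 0.0003). The ephrin receptor *Ephb2* had 79.8, 89.2 and 92.8 CPM in WT myoblasts, against 3.75, 5.103 and 3.85 CPM in WT AMuSCs (log2 fold change 4.37 ± 0.14 SE, adjusted p = 1.9e-07), so that all 3 were over 20-fold higher in culture.

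Imprinted genes, which are expressed from 1 parental copy and include growth regulators, showed no common direction. Of 21 genes tested in the list of imprinted genes, 7 were higher and 6 lower, with a median log2 fold change of 0.37. Without WT AMuSC 1 the counts were 5 and 3. *Grb10*, an adaptor that restrains insulin and IGF signalling (chr11:11930508-12038683), had 1.31, 1.01 and 1.63 CPM in WT myoblasts, against 651, 662 and 554 CPM in WT AMuSCs (log2 fold change -8.88 ± 0.18 SE, adjusted p = 9.6e-08). *Plagl1* had 725, 628 and 664 CPM in WT myoblasts, against 66.99, 90.8 and 71.4 CPM in WT AMuSCs (log2 fold change 3.14 ± 0.13 SE, adjusted p = 7.5e-07). *Peg3* had 2907, 2209 and 2675 CPM in WT myoblasts, against 1005, 1021 and 844 CPM in WT AMuSCs (log2 fold change 1.44 ± 0.12 SE, adjusted p = 2.2e-05). With *Cdkn1c*, *Grb10* was one of 2 imprinted growth inhibitors among the 25 largest decreases, and *Plagl1*, which can induce cell cycle arrest, went the other way. *Cav1*, caveolin 1, the coat of caveolae, was another of these 25, with 2.89, 5.67 and 2.58 CPM in WT myoblasts, against 461, 543 and 437 CPM in WT AMuSCs (log2 fold change -7.01 ± 0.39 SE, adjusted p = 7e-05), as were the nuclear pore gene *Nup210*, with 0.167, 0.0722 and 0.139 CPM in WT myoblasts, against 107, 100.5 and 102 CPM in WT AMuSCs (log2 fold change -9.66 ± 0.16 SE, adjusted p = 2.1e-08), and *Krt8*, a keratin of simple epithelia, with 0.167, 0.18 and 0.104 CPM in WT myoblasts, against 40.2, 35.9 and 42.7 CPM in WT AMuSCs (log2 fold change -8.03 ± 0.18 SE, adjusted p = 7.8e-08).

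The antioxidant programme of the factor NRF2 was higher in culture. Of 33 genes tested in the list of NRF2 targets, 23 were higher and 4 lower, with a median log2 fold change of 0.85. *Slc7a11*, the cystine importer, had 64.1, 75.3 and 60.6 CPM in WT myoblasts, against 1.56, 1.57 and 2.54 CPM in WT AMuSCs (log2 fold change 5.13 ± 0.21 SE, adjusted p = 1.7e-06). *Gclm*, the regulatory subunit of glutathione synthesis, had 206, 197 and 156 CPM in WT myoblasts, against 26.1, 31.4 and 32.5 CPM in WT AMuSCs (log2 fold change 2.63 ± 0.13 SE, adjusted p = 2e-06). *Srxn1*, which repairs peroxiredoxins, had 189, 199 and 159 CPM in WT myoblasts, against 31.5, 27.3 and 35.8 CPM in WT AMuSCs (log2 fold change 2.53 ± 0.12 SE, adjusted p = 1.6e-06). The metallothioneins, which bind metals, went the other way, with *Mt2* at 4.28, 3.99 and 2.48 CPM in WT myoblasts, against 118, 120.1 and 129.5 CPM in WT AMuSCs (log2 fold change -5.10 ± 0.20 SE, adjusted p = 2.3e-06). Of 27 members with a promoter entry, 11 (40.7%) held the antioxidant element TGACNNNGC on either strand, against 13.99% of 27025 genes, and 9 of the 11 were called higher and 1 lower. The promoters of *Gclm* (GRCm38.p6 chr3:122245307-122245606, + strand) and *Srxn1* (chr2:152105274-152105573, + strand) are shown from RefSeq because both carry the element, which is in capitals and reads on the opposite strand. Counted from the gene start, its first base is at -134 in *Gclm* and at 28 in *Srxn1*.
Gclm: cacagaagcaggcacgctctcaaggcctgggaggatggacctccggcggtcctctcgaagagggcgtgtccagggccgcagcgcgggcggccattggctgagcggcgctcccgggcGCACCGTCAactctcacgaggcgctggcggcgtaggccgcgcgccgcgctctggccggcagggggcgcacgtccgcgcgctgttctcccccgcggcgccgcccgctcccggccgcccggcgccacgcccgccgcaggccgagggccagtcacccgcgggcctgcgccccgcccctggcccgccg
Srxn1: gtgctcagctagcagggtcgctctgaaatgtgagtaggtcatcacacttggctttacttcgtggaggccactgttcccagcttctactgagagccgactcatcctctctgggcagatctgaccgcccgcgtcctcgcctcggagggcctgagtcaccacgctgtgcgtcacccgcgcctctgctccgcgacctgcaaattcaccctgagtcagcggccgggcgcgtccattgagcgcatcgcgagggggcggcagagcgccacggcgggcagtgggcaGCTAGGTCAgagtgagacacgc

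Lysosomal genes were higher almost throughout. Of 42 genes tested in the list of lysosome and autophagy, 34 were higher and 1 lower, with a median log2 fold change of 0.86. The cathepsin protease *Ctsb* had 599, 509.9 and 502 CPM in WT myoblasts, against 131, 139 and 151 CPM in WT AMuSCs (log2 fold change 1.94 ± 0.09 SE, adjusted p = 1e-06). The related *Ctsh* had 92.6, 66.5 and 82.2 CPM in WT myoblasts, against 5.23, 7.29 and 6.95 CPM in WT AMuSCs (log2 fold change 3.63 ± 0.17 SE, adjusted p = 2.6e-06). The autophagy receptor *Sqstm1* (p62) had 590.1, 605 and 561 CPM in WT myoblasts, against 147, 168 and 182 CPM in WT AMuSCs (log2 fold change 1.82 ± 0.09 SE, adjusted p = 1.1e-06). *Tfeb*, the transcription factor of lysosome biogenesis, was the single lower member, with 1.33, 3.07 and 1.32 CPM in WT myoblasts, against 3.94, 4.996 and 5.91 CPM in WT AMuSCs (log2 fold change -1.38), and was not called with an offset for transcript length (adjusted p = 0.055). Proteasome subunits differed little. With TMM scaling 13 of 31 were called higher and 1 lower, with a median log2 fold change of 0.15, and with upper-quartile scaling 2 were higher and 5 lower, with a median of -0.04. Without WT AMuSC 1 the higher calls came to 7, and without WT myoblast 1 to 8.

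Sterol synthesis was lower in culture. Of 35 genes tested in the list of cholesterol synthesis and uptake, 1 was higher and 22 lower, with a median log2 fold change of -0.85. *Idi1*, isopentenyl diphosphate isomerase, had 18.4, 20.8 and 14.1 CPM in WT myoblasts, against 82.8, 84.9 and 75.6 CPM in WT AMuSCs (log2 fold change -2.19 ± 0.14 SE, adjusted p = 5.7e-06). *Hmgcs1*, HMG-CoA synthase, had 52.1, 56.3 and 48.4 CPM in WT myoblasts, against 126, 132 and 116 CPM in WT AMuSCs (log2 fold change -1.26 ± 0.08 SE, adjusted p = 4.6e-06). *Srebf2*, the factor that induces these genes when sterol is scarce, had 166, 187 and 161 CPM in WT myoblasts, against 331, 318 and 335 CPM in WT AMuSCs (log2 fold change -0.94 ± 0.07 SE, adjusted p = 1.3e-05). These 3 genes were lower in every WT myoblast library than in any WT AMuSC library. *Insig1*, which retains that factor in the endoplasmic reticulum, was the single member called higher (log2 fold change 0.70), a call lost in the fit of the 12 WT libraries (adjusted p = 0.077). Among 24 members with a promoter entry, the sterol element TCACNCCAC was found only in *Hmgcs1* (4.17%, against 1.44% of 27025 genes). Its promoter (chr13:119690101-119690400, + strand) is shown with the element in capitals, its first base at -137 from the start.
Hmgcs1: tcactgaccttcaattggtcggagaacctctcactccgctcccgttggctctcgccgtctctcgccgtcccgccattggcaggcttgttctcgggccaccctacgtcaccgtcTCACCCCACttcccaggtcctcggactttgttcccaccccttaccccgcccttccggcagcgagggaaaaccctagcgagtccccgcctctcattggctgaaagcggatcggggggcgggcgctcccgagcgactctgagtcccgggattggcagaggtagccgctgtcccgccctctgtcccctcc

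Genes of respiration and of the ribosome were modestly lower. Of 45 genes tested in the list of nuclear genes of oxidative phosphorylation, 3 were higher and 27 lower, with a median log2 fold change of -0.31. *Atp5a1*, the α subunit of ATP synthase, had 886, 1011 and 843 CPM in WT myoblasts, against 1262, 1325 and 1409 CPM in WT AMuSCs (log2 fold change -0.54 ± 0.08 SE, adjusted p = 0.0006). Of 77 genes tested in the list of ribosomal proteins, 0 were higher and 48 lower, with a median log2 fold change of -0.29. Without WT myoblast 3, 31 were lower and 0 higher. Ribosomal protein genes took 3.20 to 3.42% of the counts in WT myoblasts and 4.24 to 4.83% in WT AMuSCs. *Npm1*, nucleophosmin of the nucleolus, had 1472, 1412 and 1269 CPM in WT myoblasts, against 2084, 2042 and 2173 CPM in WT AMuSCs (log2 fold change -0.60 ± 0.07 SE, adjusted p = 0.00015). Ribosomal protein genes share reads with many pseudogenes, so their single values are uncertain. Translation factors and tRNA ligases had 7 of 36 higher and 8 lower, with a median log2 fold change of -0.07, and with upper-quartile scaling 2 higher and 23 lower. Of the 13 mitochondrially encoded transcripts 3 were higher and 4 lower, counts that came to 5 and 2 without WT AMuSC 2, 1 and 5 without WT AMuSC 3 and 1 and 2 without WT AMuSC 1, WT myoblast 1 or WT myoblast 2, with *mt-Nd4* at log2 fold change 0.51 and *mt-Atp6* at log2 fold change -0.46.

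Immediate early genes and the inducible HSP70 genes were lower in culture. Of 34 genes tested in the list of immediate early genes, 8 were higher and 21 lower, with a median log2 fold change of -0.76. In the fit of 24 libraries 4 were higher and 10 lower. *Fos* had 8.96, 10.9 and 9.54 CPM in WT myoblasts, against 296, 360.2 and 345 CPM in WT AMuSCs (log2 fold change -5.09 ± 0.12 SE, adjusted p = 7.8e-08). *Egr1* had 47.7, 70.1 and 50.5 CPM in WT myoblasts, against 355, 384 and 352 CPM in WT AMuSCs (log2 fold change -2.70 ± 0.15 SE, adjusted p = 6.9e-06). *Zfp36*, which destabilises cytokine transcripts, had 6.26, 6.84 and 6.41 CPM in WT myoblasts, against 122, 133 and 131 CPM in WT AMuSCs (log2 fold change -4.31 ± 0.08 SE, adjusted p = 2.1e-08). *Socs3*, an inhibitor of JAK signalling, had 8.13, 6.23 and 7.31 CPM in WT myoblasts, against 181, 155 and 138 CPM in WT AMuSCs (log2 fold change -4.45 ± 0.14 SE, adjusted p = 2.9e-07). No WT myoblast library reached the lowest WT AMuSC value in these 4 genes. Scaled over all 24 libraries, *Fos* averaged 3631 ± 2030 CPM (SD, n = 3) and *Zfp36* 731 ± 446 CPM (SD, n = 3) in WT FiMuSCs, which were sorted like AMuSCs but from uninjured muscle. These genes are known to respond to the enzymatic release of cells from tissue, and the share of that response in the sorted cells was not tested. *Hspa1a* had 5.39, 2.87 and 3.85 CPM in WT myoblasts, against 169, 143 and 142 CPM in WT AMuSCs (log2 fold change -5.23 ± 0.24 SE, adjusted p = 9.6e-06) and its near copy *Hspa1b* had 13.3, 11.4 and 9.41 CPM in WT myoblasts, against 274, 249 and 219.8 CPM in WT AMuSCs (log2 fold change -4.44 ± 0.15 SE, adjusted p = 5.5e-07). Reads that match both copies could be split between them, so their separate values are uncertain. As a list the chaperones did not move one way, with 8 of 30 higher and 7 lower and a median log2 fold change of 0.01, and upper-quartile scaling turned the median to -0.18, with 5 higher and 14 lower. The chaperonin *Hspd1* was lower (log2 fold change -0.78) and *Hspb1* higher (log2 fold change 1.41). The heat shock element GAANNTTC stood in 12 of 23 chaperone promoters (52.2%), against 9.04% of 27025 genes. The promoter of *Hspa1a* (chr17:34972107-34972406, - strand) is shown because *Hspa1a* had the largest decrease of the list, with the element in capitals and its first base at -104.
Hspa1a: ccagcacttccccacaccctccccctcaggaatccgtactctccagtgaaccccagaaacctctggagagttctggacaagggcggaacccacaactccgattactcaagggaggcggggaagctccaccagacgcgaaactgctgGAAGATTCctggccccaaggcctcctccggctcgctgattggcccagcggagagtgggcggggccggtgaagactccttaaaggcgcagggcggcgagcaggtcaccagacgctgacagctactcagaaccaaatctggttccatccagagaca

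Interferon-induced and antigen presentation genes were lower in culture. Of 46 genes tested in the list of the interferon response, 3 were higher and 29 lower, with a median log2 fold change of -1.80. *Ddx58*, the viral RNA sensor RIG-I, had 3.797, 3.304 and 3.12 CPM in WT myoblasts, against 12.99, 13.1 and 9.01 CPM in WT AMuSCs (log2 fold change -1.78 ± 0.19 SE, adjusted p = 7.7e-05). *Ifi47* was one of the 3 called higher, with 5.78, 3.56 and 5.51 CPM in WT myoblasts, against 0.179, 0.361 and 0.511 CPM in WT AMuSCs (log2 fold change 3.81 ± 0.41 SE, adjusted p = 8e-05). Of 22 genes tested in the list of MHC class I presentation, 4 were higher and 15 lower, with a median log2 fold change of -0.75. *H2-K1* had 8.48, 12.5 and 13.8 CPM in WT myoblasts, against 51.4, 48.8 and 62.5 CPM in WT AMuSCs (log2 fold change -2.23 ± 0.19 SE, adjusted p = 6e-05). The peptide transporter *Tap2* had 9.72, 14.1 and 12.3 CPM in WT myoblasts, against 48.5, 47.99 and 51.3 CPM in WT AMuSCs (log2 fold change -2.04 ± 0.13 SE, adjusted p = 4.7e-06), whereas *B2m*, the light chain, was higher (log2 fold change 0.53), a call lost in the fit of 24 libraries (log2 fold change 0.56, adjusted p = 0.16). Reads of the class I heavy chains are shared among close paralogs. Of 19 macrophage markers tested, 4 were higher and 10 lower, and in the fit of 24 libraries 2 were higher and 1 lower. Without *Spp1* and *Lgals3*, which both groups express strongly, the other 17 summed to 36.5 to 54.1 CPM in WT myoblasts and 22.4 to 55.4 CPM in WT AMuSCs, and *C1qc* was at 0 in every WT myoblast library. Their part in the interferon and MHC differences was not tested. The interferon element GAAANNGAA stood in 20 of 34 promoters (58.8%), against 9.76% of 27025 genes, and of these 20 genes 1 was called higher and 10 lower. Genes with the element were not called lower more often than the list as a whole, with 29 of 46. Promoters of *Ddx58* (chr4:40239776-40240075, - strand) and *Gbp2* (chr3:142620413-142620712, + strand), a guanylate-binding protein, are shown as examples with the element in capitals, read on the opposite strand. Its first base is at 3 in *Ddx58* and at -58 in *Gbp2*. *Gbp2* falls outside the rule for named genes, was chosen after its values were seen, and had 0.0741, 0.0361 and 0.52 CPM in WT myoblasts, against 6.81, 7.697 and 4.805 CPM in WT AMuSCs (log2 fold change -4.91, -6.79 without WT myoblast 3).
Ddx58: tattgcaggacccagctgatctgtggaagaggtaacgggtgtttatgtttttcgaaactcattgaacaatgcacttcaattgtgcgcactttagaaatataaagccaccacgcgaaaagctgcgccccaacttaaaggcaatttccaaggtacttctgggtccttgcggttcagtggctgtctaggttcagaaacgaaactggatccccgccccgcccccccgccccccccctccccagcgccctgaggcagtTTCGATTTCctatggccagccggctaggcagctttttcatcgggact
Gbp2: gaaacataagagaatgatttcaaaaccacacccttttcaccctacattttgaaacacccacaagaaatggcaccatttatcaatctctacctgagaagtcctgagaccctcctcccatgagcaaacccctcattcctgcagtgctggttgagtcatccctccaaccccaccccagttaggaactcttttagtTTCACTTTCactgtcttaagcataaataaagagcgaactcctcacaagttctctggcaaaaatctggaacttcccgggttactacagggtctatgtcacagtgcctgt

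Levels in the other WT states place these differences. On a scale set over all 24 libraries, *Cdkn1c* averaged 25.4 ± 6.57 CPM (SD, n = 3) in WT FiMuSCs and 125 ± 74.9 CPM (SD, n = 3) in WT myotubes, and *Grb10* 575 ± 247 CPM (SD, n = 3) and 24.3 ± 4.57 CPM (SD, n = 3) in the same states. *Ccnd2* averaged 9.01 ± 5.91 CPM (SD, n = 3) in WT FiMuSCs and 189 ± 14.7 CPM (SD, n = 3) in WT myotubes. For *Cav1* the means were 502 ± 38.6 CPM (SD, n = 3) and 15.7 ± 4.27 CPM (SD, n = 3), for *Col1a2* 112 ± 41.6 CPM (SD, n = 3) and 1.15 ± 0.328 CPM (SD, n = 3), and for *Ptgs2* 2.004 ± 1.05 CPM (SD, n = 3) and 17.96 ± 5.3 CPM (SD, n = 3). Low *Col1a2*, *Cav1* and *Grb10* was thus shared by both cultured states, whereas *Cdkn1c* was low in WT myoblasts and not in WT myotubes. *Spp1* averaged 132 ± 141 CPM (SD, n = 3) in WT FiMuSCs and 1535 ± 82.3 CPM (SD, n = 3) in WT myotubes.

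The same states of *mdx* mice, in 6 separate libraries, were tested within the fit of 12 libraries of both genotypes. The WT calls are those of the fit of the 6 WT libraries. The counts and overlaps below thus compare unlike fits, and a lower count in *mdx* is not a measure of a smaller difference. Of 18523 genes in both fits, 3351 (18.1%) were higher and 3159 (17.1%) lower in *mdx* myoblasts than in *mdx* AMuSCs. Of the genes higher in WT, 50.1% were also called higher in *mdx*, which is 78.8% of those higher in *mdx* (2641 genes). Of the genes lower in WT, 37.8% were also lower in *mdx*, which is 62.3% of those lower in *mdx* (1967 genes), and 295 genes had opposite calls. In *mdx*, the log2 fold change was 5.29 (adjusted p = 0.0028) for *Ptgs2*, 5.01 (adjusted p = 0.0058) for *Itga6*, 2.33 (adjusted p = 4.4e-05) for *Myod1* and -2.21 (adjusted p = 3.8e-06) for *Pax7*. It was -6.04 (adjusted p = 0.006) for *Col1a2*, -4.77 (adjusted p = 0.01) for *Grb10* and -5.29 (adjusted p = 0.00043) for *Cdkn1c*. The difference between the 2 genotypes was tested as an interaction over 12 libraries and was called for 1188 of 20564 genes (5.78%). Without 1 library the count ranged from 425 (without WT myoblast 3) to 2361 (without *mdx* AMuSC 2), and with a length offset it was 411.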

How the data were processed

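The comparison rests on 6 of 24 deposited Salmon quantifications (polyA RNA, strand-marking library kit, GRCm38). The submitters' processing notes name Salmon 0.13.1 and DESeq2 without roles. For each of 136202 transcripts the authors deposited an expected count and a TPM value, unfiltered and not pooled as far as the files show. Expected counts were summed per gene and rounded to whole numbers, and 53355 of 53392 genes matched GENCODE M21. After filterByExpr and TMM scaling, the quasi-likelihood test of edgeR 4.0.16 (robust, two-sided, R 4.3.3) was run on the 3 WT myoblast and 3 WT AMuSC libraries, with Benjamini-Hochberg adjustment over all genes tested. CPM uses TMM factors of these 6 libraries unless a scale over 24 is stated, and TPM was summed per gene. Totals per library set counting error well below the spread between replicates (biological coefficient of variation 0.232) except near 0.

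The named genes are the 25 largest increases and 25 largest decreases (called, groups not overlapping, at least 20 CPM in the higher group, symbol not a predicted locus), all myogenic regulators, and from each list up to 8 members of smallest p and 4 of highest CPM, from which those with a clear role are described. A few genes that meet this rule are not reported here. The members, lists and tests were chosen with earlier results of these data known. List members under the filter came to 103 and are in no count. Lists were described by counts and medians, with no set test. Promoters (27025 genes, RefSeq) were searched on both strands. The AP-1 site TGANTCA was searched as well and stood in 8.97% of all genes. It was found in 2 of 28 promoters of immediate early genes (7.14%). Among matrix proteases and their inhibitors it was found in 4 of 20 (20%). The main fit was tested on simulated data. Of 97 genes changed 2-fold it recovered 50.5%, and of 99 changed 4-fold 74.7%, with 11 false calls among 17871 genes. Few genes were changed there, in both directions alike, so the simulation does not bear on the split between directions in the real data. Alternatives covered scaling, filters, DESeq2 1.42.0, a length offset, a replicate block, fits with more libraries and each library left out. Correlations of deviations from the group means were 0.06, 0.15 and 0.03 for same-numbered libraries and -0.12 to 0.06 for the others. Pairing by replicate number was thus weak at most, was not excluded, and is not in the main fit.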

Additional observations from a re-analysis of the deposited data

Results flagged for a closer look

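The difference between myoblasts and AMuSCs was compared between WT and *mdx* mice with an interaction term (edgeR quasi-likelihood test, 12 libraries), and 25 of the 134 genes named with values above (18.7%) had an adjusted p under 0.05, against 5.78% over all genes. The named genes were chosen in large part for their WT differences, so the 2 shares are not like for like. Values are the WT log2 fold change minus the *mdx* one, and no cause was tested.

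Among matrix, adhesion and actin genes the difference was 2.97 for *Fn1* (WT 4.26, *mdx* 1.29), 2.36 for *Col4a1* (2.77 and 0.42), 2.20 for *Col18a1* (3.29 and 1.09), 1.54 for *Nid1* (3.10 and 1.56), 1.48 for *Col5a2* (0.68 and -0.80), 1.66 for *Col3a1* (0.05 and -1.60), 2.72 for *Itgb3* (4.00 and 1.29), 2.56 for *Mmp14* (2.37 and -0.19) and 1.73 for *Cnn2* (2.97 and 1.24). It was also positive for *Plagl1* at 2.52 (3.07 and 0.55), *Megf10* at 1.49 (2.48 and 0.99), *Smad6* at 1.90 (2.97 and 1.07), *Sgca* at 1.36 (2.60 and 1.24), *Sox4* at 0.99 (1.91 and 0.92) and *Ifi47* at 4.53 (3.75 and -0.79). For *Pax7* the difference was 0.92 (WT -1.29, *mdx* -2.21).

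Differences were negative for *Cd34* at -3.16 (WT -3.11, *mdx* 0.06), *Krt8* at -3.70 (-8.09 and -4.39), *Dll1* at -1.08 (-1.33 and -0.25) and *Mcm5* at -0.81 (-1.14 and -0.33). It was likewise negative for 2 sterol genes, -1.10 for *Idi1* (-2.26 and -1.16) and -0.66 for *Hmgcs1* (-1.33 and -0.66). *Ccnd1* at -1.19 (0.88 and 2.07), *Jag2* at -1.16 (1.54 and 2.70) and *Dusp4* at -0.86 (3.04 and 3.90) rose less in WT culture. With each of the 12 libraries left out in turn, 14 of the 25 genes kept the call throughout. These were *Fn1*, *Col4a1*, *Col18a1*, *Nid1*, *Col5a2*, *Col3a1*, *Itgb3*, *Mmp14*, *Cnn2*, *Plagl1*, *Megf10*, *Smad6*, *Sox4* and *Cd34*. The other 11 lost it without WT AMuSC 1, WT AMuSC 3, WT myoblast 1 or WT myoblast 3 and in part without other libraries.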

How the results depend on the processing

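The counts of 5270 higher and 5209 lower genes stayed within 1.5 times under every alternative tried. With upper-quartile factors they were 3964 and 7028, in the fit of the 12 WT libraries 4441 and 6457 (40.7% of calls higher), with a transcript length offset 3968 and 4563, and with DESeq2 5417 and 5438. Leaving out 1 library gave 4802 to 5257 higher and 4090 to 4964 lower, with a lone pair of one group assumed to vary like the other. With the replicate block, for which the pairing check gave only weak correlations, they were 4980 and 4632. The sarcomere list then had 20 higher and 6 lower in place of 4 and 3. In the fit of 24 libraries, with 4161 genes lower, the lower calls came to 24 ribosomal protein genes in place of 48, 16 oxidative phosphorylation genes in place of 27 and 3 imprinted genes in place of 6, and the higher calls to 12 p53 targets in place of 18. A length offset left 10 lower MHC class I genes in place of 15. The number of genes whose difference varied with genotype was less stable. It was 1188, and without 1 library it ranged from 425 to 2361. It was 681 with the replicate block, 1921 in the fit of 24 libraries, 411 with a length offset and 2609 with DESeq2. Of 131 called genes named with values, 126 kept call and direction in every alternative that gave a value, 5 lost the call in at least 1 and none changed direction. A length offset moved 10 of them by over 1.5 times, among them *Bmp4* (-7.64 in place of -5.15), *Socs3* (-6.21 in place of -4.45) and *Slc7a11* (4.30 in place of 5.13), and the block moved *Sct* (7.41 in place of 6.61). The causes were not tested. Values under about 1 CPM rest on few counts, and their fold changes depend on the fit.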
